A study of Gossypium hirsutum with 24 samples.

Results

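The change of noninfested control (CN) cotton bolls between 2 and 5 days post anthesis (dpa) was taken from 6 of the 24 arrays of a bollworm infestation series. These were the 3 arrays labelled 5 dpa control and the 3 labelled 2 dpa control. All were upland cotton, Gossypium hirsutum L. cv. Bikaneri narma, grown in the field. Per the study's methods, control plants stood in one net-covered plot kept free of insects, and infested plants stood in a separate net-covered plot. Insecticide had been sprayed early in the season, and control bolls were bagged like the infested ones. Bolls of 5 plants made up each replicate, and arrays of a group therefore differ as pools from 1 plot do. The remaining arrays covered CN bolls at 0 and 10 dpa and bolls infested with Helicoverpa armigera larvae (biotic stress, BS) at 0, 2, 5 and 10 dpa, with 3 arrays in each of the 8 groups. The methods state that larvae were taken off after 5 days and that the bolls labelled 10 dpa were picked following a further 10 days, so the age of both kinds of 10 dpa boll is uncertain. Complete bolls were extracted at 0 and 2 dpa, but the methods describe the infested portion, with its control, at 5 and 10 dpa. The stage and the tissue taken therefore changed together between 2 and 5 dpa and cannot be told apart. In addition, in pooled tissue a smaller share of a cell type and less RNA per cell cannot be told apart.

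Cotton fibres are single epidermal cells of the ovule that start to grow out around flowering and then elongate for many days, with rapid synthesis of membrane lipid, cell wall and cytoskeleton. The boll wall and the ovule surface deposit a cuticle of cutin and wax made from long-chain fatty acids over the same time. Young bolls also import sugar and nitrogen from the plant, and petals, stamens and style are shed after pollination.

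The values were log2 RMA values in which each probe set had its median over the 24 arrays at 0, so a level below is a distance from that median and not an abundance. Of 23977 probe sets tested, 258 (1.08%) were up-regulated and 510 (2.13%) were down-regulated in CN 5 dpa bolls relative to CN 2 dpa bolls, at a fold change of at least 3 and an adjusted p of at most 0.01 (limma, Benjamini-Hochberg over all probe sets). The median change was 2.15 on the log2 scale over the up-regulated set, -2.27 over the down-regulated set and 0.05 over all probe sets. Changes of over 4 log2 units occurred in 19 up-regulated and 60 down-regulated probe sets. Up-regulated probe sets made up 33.6% of the calls, and this share was 47.3% after quantile normalization, 47.7% after centring on the hybridization controls and 57.4% after centring on the poly-A controls. Here and below, quantile normalization was run on the centred values. It gave every array the same spread and so rescaled CN 2 dpa arrays against CN 5 dpa arrays. Calls that it adds or removes can come from this rescaling alone. Folds of 3 to 4 occurred in 103 up-regulated and 181 down-regulated probe sets. The smallest folds called and the largest folds left out were all 3.00, and 3665 higher and 3632 lower probe sets passed the adjusted p alone. In all 768 called probe sets the 3 arrays of CN 5 dpa did not overlap those of CN 2 dpa, a separation also found upward in 30.6% and downward in 25.2% of all probe sets tested.

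Replicates correlated at 0.953 to 0.970 in CN 5 dpa and at 0.907 to 0.920 in CN 2 dpa over all probe sets, and arrays of the 2 groups correlated at 0.343 to 0.384. Over probe sets, values had an SD of 0.70 to 0.71 on the CN 5 dpa arrays and of 0.35 to 0.36 on the CN 2 dpa arrays. The SDs of CN 2 dpa were the lowest of the series. Several control features also moved with the comparison. The hybridization controls had medians of -0.60 to -0.43 in CN 5 dpa and of -0.43 to -0.22 in CN 2 dpa. Poly-A controls had medians of -1.39 to -1.04 in CN 5 dpa and of -0.84 to -0.73 in CN 2 dpa. The 3′ minus 5′ difference of the actin probe sets was -0.96 to -0.70 in CN 5 dpa, against -0.46 to -0.16 in CN 2 dpa. That of ubiquitin overlapped between the groups. The part of these differences in the results was not tested.

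Gene descriptions, mostly from Arabidopsis matches, were at hand for 2896 probe sets, which the study listed because they changed under infestation on these same arrays. Among them 155 (5.35%) were up-regulated and 299 (10.3%) were down-regulated, and these shares are the background for the gene groups that follow. No sequence of the array's probe sets was used here.

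Thiamine (vitamin B1) synthesis held the highest rise. THI1, which makes the thiazole part of thiamine, had 3.52, 3.36 and 3.39 on the CN 5 dpa arrays, against -3.33, -3.50 and -3.74 on the CN 2 dpa arrays. The groups lay on opposite sides of 0, with a change of 6.95 ± 0.11 (SE; limma, adjusted p = 5.6e-21). THI1 was also high in CN bolls at 0 dpa (3.09) and at 10 dpa (4.91), so 2 dpa was its low point. thiC, which makes the pyrimidine part, had 3.51, 3.33 and 3.27 in CN 5 dpa and -0.60, -0.53 and -0.68 in CN 2 dpa, a change of 3.97 ± 0.14 (limma, adjusted p = 1.6e-15). It likewise stood above its 2 dpa level at 0 dpa (2.25) and 10 dpa (3.83). Of 6 probe sets for both genes, 5 were up-regulated and none was down-regulated, with a median change of 3.88. The sixth, a further THI1 probe set, changed by 0.96. This group was put together after its values were seen.

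**Figure D1:**
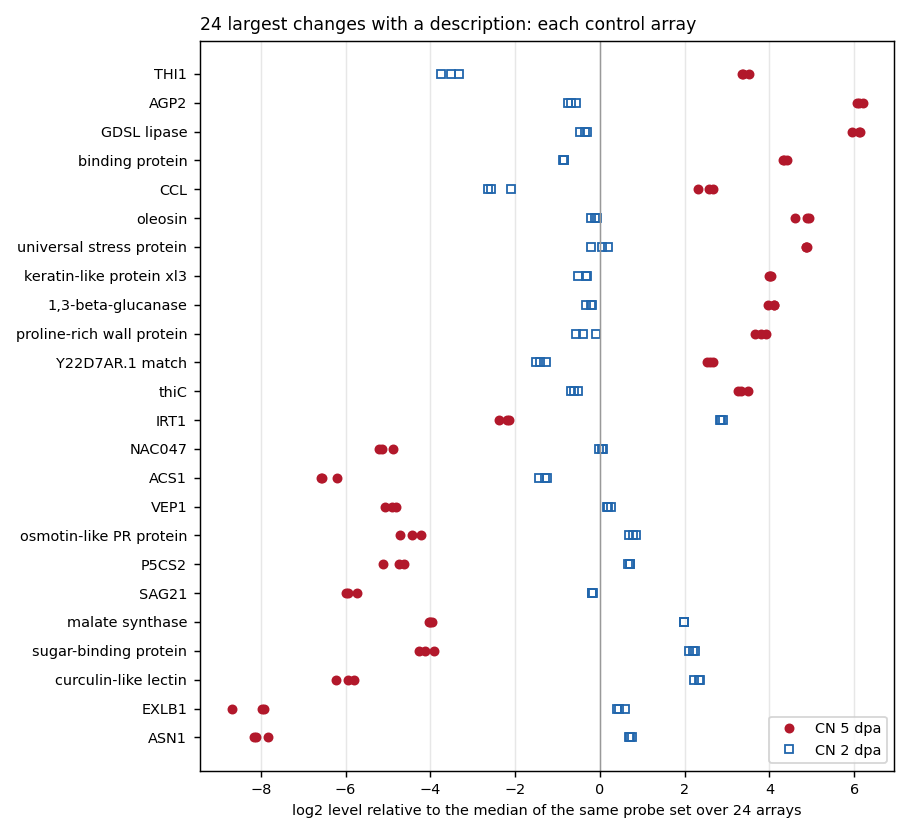
Each CN 5 dpa array (filled circles) and each CN 2 dpa array (open squares) for the 12 largest rises and the 12 largest falls among described probe sets. The x axis is the log2 level relative to the median of the same probe set over 24 arrays, names are those of the annotation, and in each row the 2 groups of 3 arrays are apart.

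Proteins of the cell surface followed. AGP2, an arabinogalactan protein, had 6.20, 6.11 and 6.06 in CN 5 dpa, against -0.57, -0.76 and -0.68 in CN 2 dpa. All later arrays were far above the earlier ones, at a change of 6.79 ± 0.09 (limma, adjusted p = 4.9e-22), and a second AGP2 probe set changed by 6.55. These were the 2 up-regulated members among 18 arabinogalactan and fasciclin proteins, 16 of which changed upward in sign, with a median of 0.67. A proline-rich cell wall protein had 3.66, 3.80 and 3.91 in CN 5 dpa and -0.40, -0.56 and -0.09 in CN 2 dpa, a change of 4.14 ± 0.10. The high-glycine tyrosine keratin-like protein xl3 had 4.02, 4.04 and 4.0 in CN 5 dpa, against -0.32, -0.33 and -0.52 in CN 2 dpa, a change of 4.41 ± 0.09. Both stayed high in CN bolls at 10 dpa, at 5.30 for the proline-rich protein and 4.37 for xl3.

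GDSL-motif lipases form a large family of esterases, some of which polymerise cutin. The highest of them had 5.96, 6.12 and 6.15 in CN 5 dpa and -0.30, -0.46 and -0.36 in CN 2 dpa, a change of 6.45 ± 0.15 (limma, adjusted p = 2.8e-18). Its arrays at 5 dpa were above those of every other CN stage, with means of 0.93 at 0 dpa and 2.63 at 10 dpa. Of 22 GDSL probe sets, gathered after values were seen, 10 were up-regulated and 1 was down-regulated, with a median change of 1.35. The member that fell matched GLIP1, a secreted lipase with antimicrobial activity in Arabidopsis, at -2.01 ± 0.13. Other probe sets matching GLIP1 changed by between -0.26 and 2.52, so probe sets under this name moved differently.

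Of 21 probe sets for fatty acid elongation and desaturation, 10 were up-regulated, none was down-regulated and the median change was 0.88. KCS6, a 3-ketoacyl-CoA synthase that elongates very-long-chain fatty acids for wax, had 3.22, 3.15 and 2.95 in CN 5 dpa, against 0.02, 0.05 and -0.02 in CN 2 dpa. The change was 3.09 ± 0.23 (limma, adjusted p = 3.4e-10), and a second probe set changed by 2.99. The omega-3 desaturase FAD3, which makes linolenic acid, was up-regulated on both of its called probe sets, by 2.61 and 2.85. A beta-ketoacyl-CoA synthase, KCS2, rose by 2.65 and a delta-8 sphingolipid desaturase by 2.80. KCS6 aside, these members were chosen after their values were seen.

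Cutin and wax genes, a group also chosen after values were seen, gave 11 up-regulated and no down-regulated probe sets of 17, with a median change of 1.76. WAX2, needed for the wax and cutin layer of Arabidopsis stems, changed by 2.50 ± 0.07. Another probe set under this name changed by 0.88 and was not called. CYP86A8 (LACERATA), a fatty acid hydroxylase of cutin synthesis, changed by 2.48 ± 0.15. A wax synthase family protein gave 3.38, 3.29 and 3.02 in CN 5 dpa and 0.25, 0.34 and 0.23 in CN 2 dpa, the largest change of the group at 2.96 ± 0.17. CER1, an alkane synthesis gene, was called on 2 of its 3 probe sets in this group and in the preceding one, at 1.95 and 2.04, and the third changed by 0.21. In each of the fatty acid, GDSL and cutin groups, at least 9 of the same probe sets were up-regulated under every scaling tried. The fatty acid and cutin groups share probe sets, so their counts overlap.

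The cytoskeleton group rose in part. Of 46 tubulin and actin probe sets, 8 were up-regulated and none was down-regulated, with 41 changes above 0 and a median of 0.89. Beta-tubulin 17, a microtubule subunit, had 3.92, 3.93 and 4.04 in CN 5 dpa, against 0.13, 0.28 and 0.40 in CN 2 dpa, a change of 3.69 ± 0.13 (limma, adjusted p = 2.1e-15). ACT11, an actin, had 3.30, 3.32 and 3.31 in CN 5 dpa and 0.21, 0.19 and 0.18 in CN 2 dpa, a change of 3.12 ± 0.09. The other up-regulated members were 4 beta-tubulins at 1.77 to 2.22 and ACT3 on 2 probe sets at 2.02 and 2.55, with no alpha-tubulin among them.

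Single wall-loosening and wall-degrading genes changed strongly in both directions. Alpha-expansin 1, a fibre marker that loosens walls during growth, had 3.20, 3.53 and 3.55 in CN 5 dpa, against 0.14, 0.18 and 0.15 in CN 2 dpa. It changed by 3.27 ± 0.09 (limma, adjusted p = 6.4e-17), and its levels climbed over the CN stages, with means of -3.86 at 0 dpa and 4.02 at 10 dpa. EXLB1, an expansin-like protein, fell, with -7.93, -7.96 and -8.69 in CN 5 dpa and 0.39, 0.45 and 0.59 in CN 2 dpa. It was as low in CN bolls at 0 dpa (-7.98) and 10 dpa (-8.19), so 2 dpa stood alone among the CN stages. In BS bolls EXLB1 had means of 0.72, 0.82, 0.59 and -0.41 at 0, 2, 5 and 10 dpa, beside 0.48 in CN 2 dpa. Its change of -8.67 ± 0.13 (limma, adjusted p = 2.4e-21) was next to the largest fall, and a second EXLB1 probe set changed by -7.27. These 3 probe sets were the only called members of 31 expansins, whose median change was 0.02. Both shares called were under the 5.35% and 10.3% of all described probe sets. Under quantile normalization 2 expansins were up-regulated and 4 down-regulated, and the median was -0.09.

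Single pectin and xyloglucan enzymes also changed in both directions. Pectate lyase, which cleaves pectin, had 3.00, 2.92 and 2.95 in CN 5 dpa and -0.59 on each CN 2 dpa array, a change of 3.55 ± 0.16. Polygalacturonase, which also cleaves pectin, had -3.75, -3.73 and -3.48 in CN 5 dpa, against 0.44, 0.28 and 0.49 in CN 2 dpa, a change of -4.06 ± 0.10. No further member of the 21 pectin enzymes was called, and both shares were under those of all described probe sets. Quantile normalization, however, called 3 down-regulated and poly-A control centring 3 up-regulated. Among 19 xyloglucan enzymes, which cut and rejoin the xyloglucan tethers of the wall, 3 were up-regulated and 2 were down-regulated (4 under quantile normalization). The downward share was near that of all described probe sets, and the upward share was above it. EXGT-A1 changed by 2.18 ± 0.08, while XTR4 changed by -3.78 ± 0.08 and the touch-inducible TCH4 by -3.29 ± 0.16. TCH4 was at 2.96 in CN bolls at 0 dpa, above its 2 dpa level. Of 13 cellulose synthase and synthase-like probe sets, CSLG2 alone was called, at -3.26 ± 0.11, where quantile normalization also called 1 up-regulated and poly-A control centring 2.

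The check of the tissue against its markers gave 12 fibre probe sets, of which 2 were up-regulated and 1 was down-regulated. Their median level was 1.05 in CN 5 dpa and 0.43 in CN 2 dpa. Fibre protein GLP1, the other riser beside alpha-expansin 1, had 1.79, 1.79 and 1.77 in CN 5 dpa, against -1.51, -1.58 and -1.61 in CN 2 dpa, a change of 3.35 ± 0.09. LTP3, a lipid transfer protein, fell by 1.79 ± 0.12 on 1 of its 3 probe sets, a call lost under 3 other scalings, and the other 2 changed by -1.47 and 0.89. Of 7 seed and embryo probe sets, 1 was up-regulated and 2 were down-regulated, at median levels of 0.04 in CN 5 dpa and -0.11 in CN 2 dpa. The riser, an oleosin or glycine-rich protein of the kind that coats oil bodies or the pollen surface, had 4.88, 4.94 and 4.60 in CN 5 dpa and -0.06, -0.20 and -0.12 in CN 2 dpa, a change of 4.94 ± 0.12. A late embryogenesis abundant storage protein changed by -2.08 ± 0.12 and Lea14-A by -1.64 ± 0.06, a call that was lost under 3 other scalings and without CN 5 dpa replicate 3. No described probe set matched the pollen and anther list, so the shedding of stamens could not be followed through it.

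Green tissue markers gave 14 probe sets, with median levels of 1.03 in CN 5 dpa and 0.48 in CN 2 dpa. Among them LHCB4.3, a photosystem II antenna protein, was up-regulated on 2 probe sets, the first with 2.23, 2.13 and 2.00 in CN 5 dpa and -0.28, -0.30 and -0.48 in CN 2 dpa. CAB1, another antenna protein, was down-regulated on 1 probe set, with -2.71, -2.48 and -2.53 in CN 5 dpa and 0.47, 0.50 and 0.60 in CN 2 dpa, a change of -3.09 ± 0.06. Its other 2 probe sets changed by 0.26 and 1.47. Chlorophyll a oxygenase, which makes chlorophyll b, fell by 2.17 ± 0.07. The remaining 8 light-harvesting probe sets changed by between 0.35 and 0.88, with LHCB3, for example, at 0.59. The part that a different mixture of boll wall, ovule and fibre had in these or other results was not tested.

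Further genes of defence and stress rose. PR1, a pathogenesis-related marker of salicylic acid signalling, had 1.28, 1.23 and 1.19 in CN 5 dpa, against -2.57, -2.39 and -2.54 in CN 2 dpa. The change was 3.73 ± 0.11 (limma, adjusted p = 6.5e-17), and 5 dpa was the only CN stage at which PR1 was above 0, since it had -2.09 at 0 dpa and -2.71 at 10 dpa. A 1,3-beta-glucanase of cotton, which breaks down callose, had 4.10, 4.12 and 3.96 in CN 5 dpa and -0.21, -0.34 and -0.18 in CN 2 dpa, a change of 4.3 ± 0.15, and it too was lower at 10 dpa (-0.70). Thaumatin-like protein 1 changed by 3.17 ± 0.17. Of 24 pathogenesis-related probe sets, 5 were up-regulated (8 under quantile normalization) and 3 were down-regulated. The largest fall was in an osmotin-like protein, with -4.23, -4.43 and -4.72 in CN 5 dpa, against 0.69, 0.78 and 0.85 in CN 2 dpa, a change of -5.23 ± 0.15. A class I endochitinase, which degrades chitin, fell by 2.75 ± 0.07.

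Single genes outside these groups also rose strongly. A universal stress protein had 4.85, 4.86 and 4.88 in CN 5 dpa, against 0.18, 0.06 and -0.20 in CN 2 dpa, a change of 4.85 ± 0.15. A SAUR-like auxin-responsive protein changed by 3.60 ± 0.09, 1 of 3 up-regulated and 1 down-regulated of 36 auxin response probe sets. These counts were 5 and 2 under quantile normalization, 6 and 0 under hybridization-control centring and 7 and 0 under poly-A control centring. BFRUCT3, a vacuolar invertase that splits sucrose, changed by 2.34 ± 0.09, and the sugar transporter STP1 by -1.66 ± 0.05, a call lost under 3 other scalings. A MYB family factor rose by 3.05 ± 0.11 and MEE3, a MYB-like factor, by 2.85 ± 0.19. The cotton homeodomain protein BNLGHi6313 rose by 2.47 ± 0.10.

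The largest fall was in ASN1, asparagine synthase, which is dark-inducible in Arabidopsis and makes asparagine for nitrogen transport when sugar is short. It had -7.82, -8.11 and -8.17 in CN 5 dpa, against 0.69, 0.71 and 0.76 in CN 2 dpa. All 3 later arrays were far below the earlier ones, and the change was -8.75 ± 0.16 (limma, adjusted p = 2.9e-20). A second probe set changed by -8.18, and 6 of the 7 probe sets matching asparagine synthase were down-regulated, with changes of between -8.75 and -0.59. ASN1 was also low at 0 dpa (-6.44) and 10 dpa (-7.71), so 2 dpa stood alone among the CN stages. Its mean was 0.72 in CN 2 dpa, and in BS bolls -0.41, 0.39, 0.61 and 0.71 at 0, 2, 5 and 10 dpa. The CN 2 dpa level was thus near that of infested bolls. These 6 were the called members of the list of 13 asparagine synthase and nitrogen remobilisation probe sets, which had a median change of -0.91. Quantile normalization also called 1 member up-regulated.

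Sugar-binding lectins fell as well. A curculin-like mannose-binding lectin had -5.81, -5.94 and -6.21 in CN 5 dpa and 2.35, 2.33 and 2.23 in CN 2 dpa, a change of -8.29 ± 0.09 (limma, adjusted p = 5.0e-23). A further probe set described as sugar binding had -3.91, -4.28 and -4.13 in CN 5 dpa, against 2.19, 2.09 and 2.25 in CN 2 dpa, a change of -6.28 ± 0.12. Both were also low in CN bolls at the other stages, the curculin-like lectin at -5.11 (0 dpa) and -6.40 (10 dpa) and the sugar-binding one at -3.95 and -3.81.

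Breakdown of stored lipid, a group gathered after values were seen, gave 11 down-regulated and no up-regulated probe sets of 16, with a median change of -2.14. Malate synthase, an enzyme of the glyoxylate cycle that turns fatty acid carbon towards sugar, had -4.04, -3.95 and -4.00 in CN 5 dpa and 1.98, 1.98 and 1.99 in CN 2 dpa. The change was -5.98 ± 0.11 (limma, adjusted p = 2.1e-20). The lipase SDP1, which releases fatty acids from oil, was down-regulated on 2 of 3 probe sets, at -2.65 and -2.52, and the peroxisomal oxidase ACX2, which starts fatty acid oxidation, on both of its own, at -2.94 and -2.77. AAE7, a peroxisomal acetate-CoA ligase, was down-regulated on all 3 of its probe sets, at between -3.15 and -1.75. Isocitrate lyase, the partner of malate synthase in the cycle, had 0.86, 0.96 and 1.14 in CN 5 dpa, against -0.36, -0.61 and -0.17 in CN 2 dpa. Its change of 1.37 ± 0.14 was under the fold threshold and opposite in sign. Under quantile normalization 2 members of the group were up-regulated and 9 down-regulated, and under either control-probe centring 1 and 9.

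Genes of water stress and of abscisic acid, the hormone of drought and dormancy, fell together with proline synthesis. SAG21, a late embryogenesis abundant-like protein induced by ageing and stress in Arabidopsis, had -5.74, -6.0 and -5.95 in CN 5 dpa, against -0.19, -0.17 and -0.19 in CN 2 dpa. Its change was -5.71 ± 0.07 (limma, adjusted p = 5.0e-22), and all 3 SAG21 probe sets were down-regulated. P5CS2, an enzyme of proline synthesis, had -5.12, -4.73 and -4.63 in CN 5 dpa and 0.67, 0.71 and 0.72 in CN 2 dpa, a change of -5.53 ± 0.10. It was also low in CN bolls at 0 dpa (-4.71) and 10 dpa (-3.29). RD26, a dehydration-induced NAC factor, had -4.19, -4.62 and -4.48 in CN 5 dpa, against -0.54, -0.34 and -0.20 in CN 2 dpa, a change of -4.07 ± 0.10. Of its 3 probe sets 2 were down-regulated, and the other changed by -0.45. Of 25 abscisic acid probe sets, 9 were down-regulated and none was up-regulated, with a median of -1.45 (6 under quantile normalization). They included the phosphatase ABI2, which restrains the abscisic acid signal, at -3.32 ± 0.06, and the receptor PYL9 at -1.84 ± 0.05. Also among the 9 were 2 RD26 and 3 ATAF1 probe sets, NAC factors that are counted again below. In the whole abscisic acid list 22 changes were below 0 and 3 above. The phosphatase HAI1 was highest at 0.90 ± 0.07, under the fold threshold and opposite in sign. In the proline group 5 of 7 were down-regulated, with 3 left under quantile normalization or poly-A control centring. Both the synthesis enzyme P5CS1, at -1.71, and a proline oxidase that breaks proline down, at -1.96, were among them. The abscisic acid and proline groups were gathered after values were seen.

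Of 23 NAC factors, 10 were down-regulated and none was up-regulated, with a median change of -0.99. NAC047 had -4.89, -5.14 and -5.21 in CN 5 dpa, against 0.08, -0.02 and 0.04 in CN 2 dpa, a change of -5.12 ± 0.12 (limma, adjusted p = 2.8e-18). It was also low in CN bolls at 0 dpa (-6.42) and 10 dpa (-5.98). The other called members were RD26, ANAC074, ATAF1 and NAC083, most of them on more than 1 probe set. RD26 and ATAF1 are also in the abscisic acid list, so these counts overlap. ATAF1 also had 2 probe sets that changed by 0.01.

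Among other regulators, STZ, a zinc finger repressor of the C2H2 family induced by salt and cold in Arabidopsis, had -4.37, -4.33 and -4.43 in CN 5 dpa and 0.16, 0.12 and 0.08 in CN 2 dpa, a change of -4.50 ± 0.07. Down-regulated probe sets numbered 6 of 27 in the C2H2 list (3 under quantile normalization), 7 of 47 in the AP2-EREBP list (3 under quantile normalization) and 9 of 69 in the WRKY list, and no member of these lists was up-regulated, although quantile normalization called 1 in the AP2-EREBP list and 1 in the WRKY list. The shares of the AP2-EREBP and WRKY lists were near the 10.3% of all described probe sets. Of the 9 in the WRKY list, 3 were kinases by description, among them WRKY19, whose Arabidopsis protein joins a WRKY domain to a kinase, at -3.62 ± 0.10. RAV1, of the AP2-EREBP list, fell by 3.12 ± 0.14. The homeobox list had 1 up-regulated and 8 down-regulated of 33 (5 down-regulated under poly-A control centring), with BLH1 at -3.64 ± 0.08 and HB40 at -3.45 ± 0.10. The MYB list had 5 up-regulated and 9 down-regulated of 48 (6 and 6 under quantile normalization, 5 down-regulated under either control-probe centring). MYB108, known in Arabidopsis from pathogen response and stamen maturation, fell by 3.32 ± 0.13.

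MPK3, a MAP kinase of defence and stress signalling, had -4.62, -4.71 and -4.65 in CN 5 dpa, against -0.13, -0.17 and -0.06 in CN 2 dpa. Its change was -4.54 ± 0.07 (limma, adjusted p = 2.5e-21), and 3 of its 4 probe sets were down-regulated. MPK3 was also low in CN bolls at 0 dpa (-4.99) and 10 dpa (-4.48). Of 13 MAP kinase probe sets, 5 were down-regulated and none was up-regulated, with a median of -1.10.

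Ethylene is made from ACC, which ACC synthase produces and ACC oxidase converts. Of 17 probe sets for these steps, 7 were down-regulated and none was up-regulated, with a median change of -1.02. ACS1, an ACC synthase, had -6.20, -6.57 and -6.56 in CN 5 dpa and -1.24, -1.31 and -1.43 in CN 2 dpa, a change of -5.12 ± 0.15 (limma, adjusted p = 9.1e-17). It was as low at 0 dpa (-6.58) and 10 dpa (-6.77). A second synthase, ACCS-1, changed by -3.83 ± 0.05, and the 5 called ACC oxidase probe sets by between -3.33 and -1.83. In the jasmonate list JAZ1, a repressor of jasmonate signalling, was the only called member of 27, at -1.96 ± 0.10. Its call was lost under quantile normalization, which called 3 other members up-regulated, and under poly-A control centring.

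Trehalose and galactinol synthesis had 5 down-regulated and no up-regulated probe sets of 13, all 13 changes being below 0 with a median of -0.89. TPS11, a trehalose phosphate synthase-like protein, had -4.78, -4.91 and -4.86 in CN 5 dpa, against -0.35, -0.30 and -0.29 in CN 2 dpa, a change of -4.54 ± 0.08. A trehalose-6-phosphate phosphatase, which finishes trehalose synthesis, had -3.70, -3.60 and -3.45 in CN 5 dpa and 0.57, 0.57 and 0.56 in CN 2 dpa, a change of -4.15 ± 0.07. Protease inhibitors, which block insect gut enzymes, were down-regulated on 2 of 6 probe sets (1 under quantile normalization), with a 21 kDa trypsin inhibitor at -3.36 ± 0.12.

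IRT1, the root iron importer of Arabidopsis, had -2.37, -2.20 and -2.14 in CN 5 dpa, against 2.86, 2.82 and 2.89 in CN 2 dpa, a change of -5.10 ± 0.16 (limma, adjusted p = 3.9e-16). Unlike most falling genes it was already high at 0 dpa (1.75), and it was low at 10 dpa (-2.61). In a group of 5 iron probe sets gathered after values were seen, where quantile normalization left 1 up-regulated and 2 down-regulated, the iron store FER4 changed by -3.30 ± 0.05 and a nicotianamine synthase, which makes an iron chelator, by -2.39 ± 0.18. Among 14 aquaporins, 4 were down-regulated (2 under either control-probe centring) and 1 was up-regulated, with the plasma membrane channel PIP2B at -3.79 ± 0.06 and a vacuolar gamma-TIP at 1.86 ± 0.07. GSTU18, a glutathione transferase, fell by 4.47 ± 0.08, and VEP1, named for vein patterning, by 5.13 ± 0.08.

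Clock-related genes moved in both directions. LHY, a morning factor of the circadian clock, had -4.50, -4.65 and -4.41 in CN 5 dpa, against 0.38, 0.40 and 0.45 in CN 2 dpa, a change of -4.93 ± 0.07 (limma, adjusted p = 1.9e-21). Its second probe set changed by -2.07. CCL, whose Arabidopsis match is named for its likeness to a clock-controlled gene, had 2.68, 2.56 and 2.32 in CN 5 dpa and -2.10, -2.58 and -2.64 in CN 2 dpa, a change of 4.96 ± 0.16. Of 9 clock probe sets, gathered after values were seen, 1 was up-regulated and 3 were down-regulated, of which 2 stayed called under control-probe centring. The hour at which bolls of each stage were picked is not stated in the labels or methods, so hour and stage cannot be told apart for these genes.

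**Figure D2:**
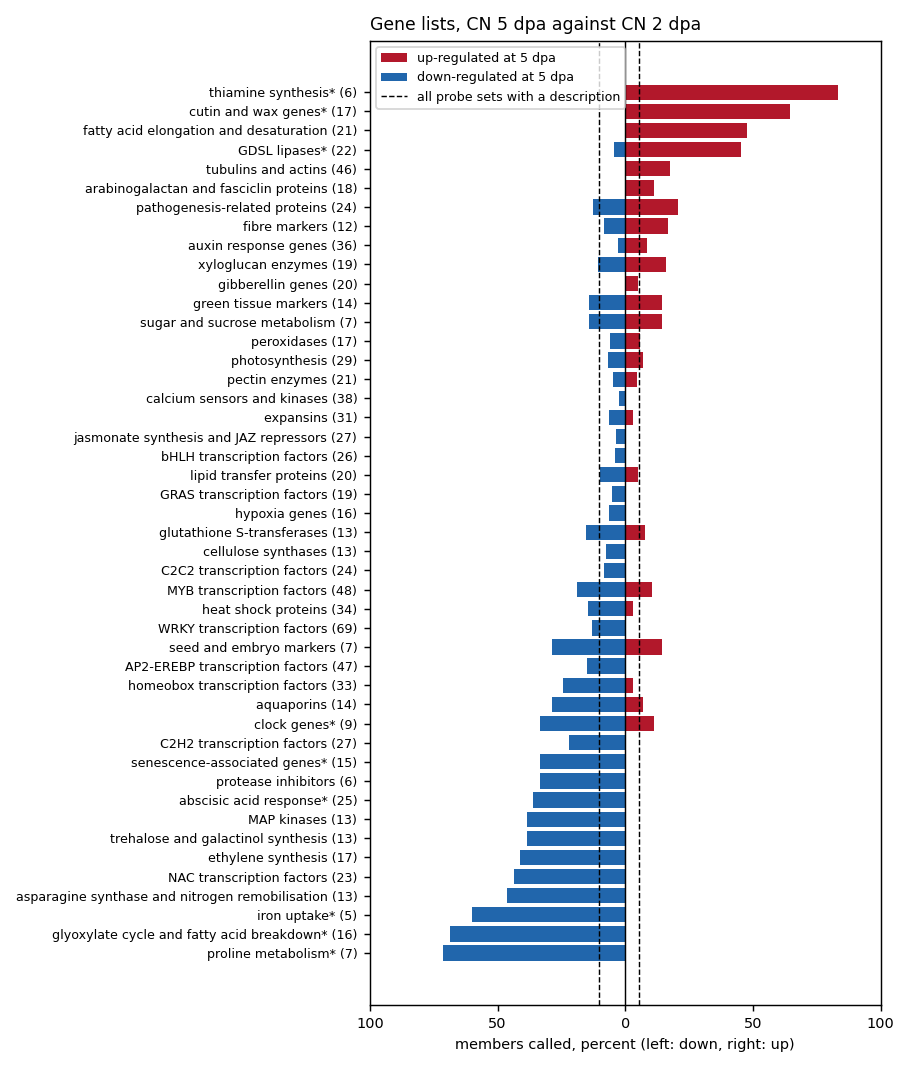
Share of the members of each gene list that were up-regulated (right, red) or down-regulated (left, blue) in CN 5 dpa relative to CN 2 dpa, in percent, with the number of probe sets in brackets and the dashed lines at the shares of all described probe sets, 5.35% and 10.3%. Asterisks mark lists gathered after values were seen, lists under 5 members or with no call are left out, and thiamine synthesis (5 of 6 up) and proline metabolism (5 of 7 down) lie at the ends.

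Large groups with no call lay beside these. None of 53 histone, replication and cyclin probe sets was called, with changes of between -0.89 and 1.52 and a median of 0.31. This median was -0.20 under quantile normalization, and 2 members were up-regulated under either control-probe centring. None of 46 ribosomal protein probe sets was called either, and their median change was 0.22. The phenylpropanoid, flavonoid and laccase list had no call among 20 (median -0.19, but 0.03 and 0.19 under the centrings on hybridization and poly-A controls), the bZIP list none among 18 (median -0.69) and the terpene synthase list none among 5. Other scalings called at most 1 member up-regulated and 1 down-regulated in each of these 3 lists. In the heat shock list 1 of 34 was up-regulated, a chloroplast chaperonin 60 at 2.37, and 5 were down-regulated, HSP15.7 at -2.11 among them. Quantile normalization of the centred values, which rescales the arrays, gave 6 up-regulated and 1 down-regulated.

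The other CN stages, which the comparison did not use, placed the 2 sets differently. The up-regulated set had median levels of 0.05, -0.09, 2.06 and 2.46 at 0, 2, 5 and 10 dpa in CN bolls. Its highest CN mean was at 10 dpa in 151 of the 258 probe sets and at 5 dpa in 102. The down-regulated set had median levels of -1.91, -0.01, -2.37 and -1.98 at the same stages, and in 470 of 510 probe sets the highest CN mean was that at 2 dpa, against 4819 of all 23977. Since each set was chosen on its 2 and 5 dpa levels, part of this order is fixed by the choice. CN 10 dpa and CN 0 dpa share no array with the comparison. Between them 171 of the up-regulated set (66.3%) were higher and 4 (1.55%) were lower at 10 dpa, where 3.37% and 1.2% of all probe sets tested were so called. In the down-regulated set 42 (8.24%) were higher and 65 (12.7%) were lower at 10 dpa than at 0 dpa, and the median difference was -0.20.

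**Figure D3:**
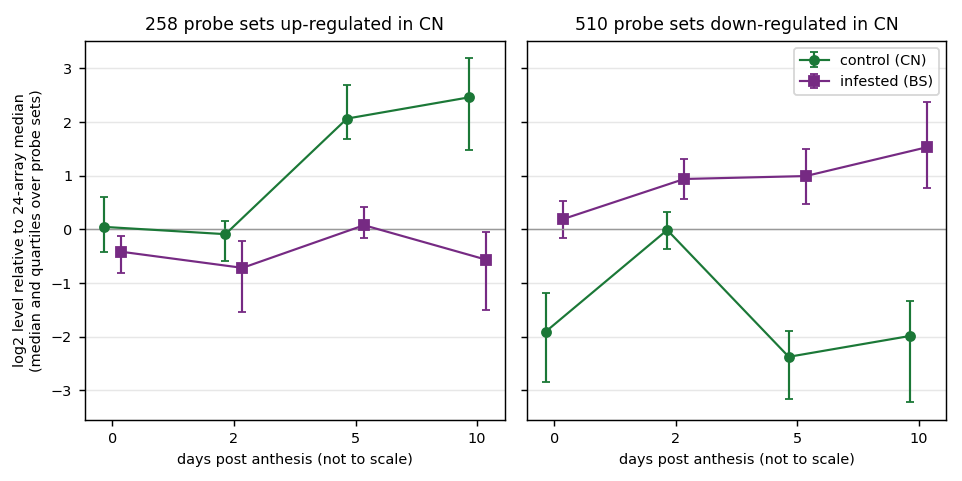
Median log2 level relative to the 24-array median, with quartiles over probe sets, of the 258 up-regulated (left) and 510 down-regulated probe sets (right) at 0, 2, 5 and 10 dpa in CN bolls (circles) and BS bolls (squares). CN bolls show a rise to 2.06 at 5 dpa and 2.46 at 10 dpa on the left and a peak of -0.01 at 2 dpa on the right, while BS medians on the right stay between 0.19 and 1.53.

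Infested bolls followed another course over the same days. Across all probe sets tested, 630 (2.63%) were up-regulated and 127 (0.53%) were down-regulated in BS 5 dpa relative to BS 2 dpa. Of the set up-regulated in CN bolls, 80 (31%) were also up-regulated in BS bolls, none was down-regulated and the median BS change was 0.96. Of the set down-regulated in CN bolls, 11 (2.16%) were down-regulated in BS bolls, 23 (4.51%) were up-regulated and the median BS change was 0.05. The medians of this set in BS bolls were 0.19, 0.94, 0.99 and 1.53 at 0, 2, 5 and 10 dpa. Its CN median at 2 dpa, -0.01, was nearer to these than to those of CN bolls at 0, 5 and 10 dpa (-1.91, -2.37 and -1.98). In this set the CN 2 dpa bolls were therefore closer to infested bolls than to the other control bolls, and the reason was not tested.

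The difference between the CN change and the BS change was tested directly, as the 2 changes share no array. Control and infested plants stood in separate plots, so plot and infestation cannot be told apart in this difference. Over all probe sets the change was more positive in CN bolls in 248 (1.03%) and more negative in 1010 (4.21%), so that 19.7% of these calls were more positive, against 38.6% after quantile normalization. The CN change enters both the choice of the sets and this test. Within the up-regulated set 108 were more positive and 4 more negative in CN bolls, and within the down-regulated set 418 were more negative and none was more positive. The remaining 146 and 92 did not pass, which does not show that their changes were alike. ASN1 changed by 0.21 in BS bolls (difference -8.96), MPK3 by 0.05 (difference -4.59), NAC047 by 0.03 (difference -5.15) and ACS1 by -0.24 (difference -4.88). Malate synthase rose by 2.64 and IRT1 by 1.61 in BS bolls, for differences of -8.62 and -6.71.

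**Figure D4:**
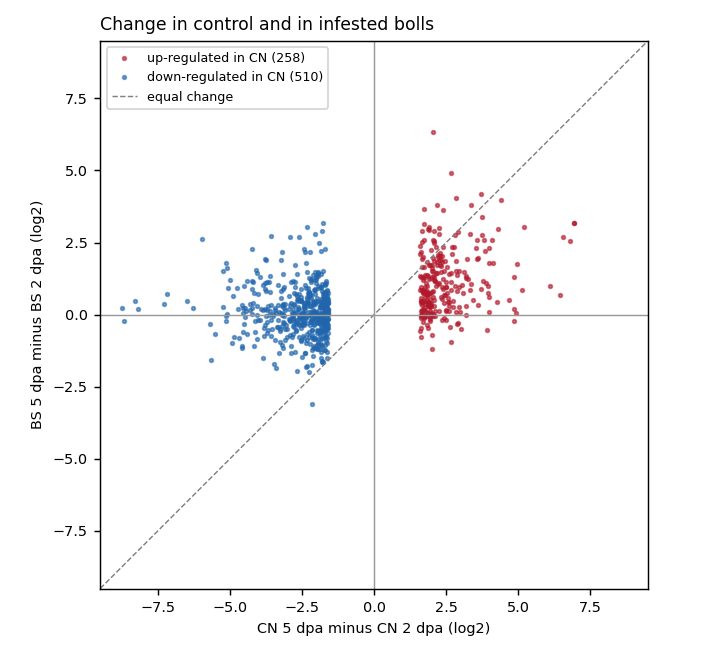
Change from 2 to 5 dpa in CN bolls (x axis, log2) against the change in BS bolls (y axis, log2) for the probe sets called in CN bolls, 258 up-regulated in red and 510 down-regulated in blue, with equal change as a dashed line. The blue points spread about a BS change near 0 (median 0.05), and the red points lie mostly above 0 (median 0.96) and under the line.

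Some rises were shared by infested bolls. xl3 rose by 3.98 in BS bolls (difference 0.43), GLP1 by 3.80 (difference -0.45), PR1 by 2.78 (difference 0.96) and LHCB4.3 by 1.84 (difference 0.63), and none of these differences passed. Others were not called in BS bolls and differed from the CN change. The oleosin or glycine-rich protein changed by 0.06 there (difference 4.87) and the GDSL lipase by 0.69 (difference 5.76). KCS6 changed by 0.75 (difference 2.35) and beta-tubulin 17 by 0.90 (difference 2.79). THI1 and AGP2 rose in both, by 3.19 and 2.56 in BS bolls, and more in CN bolls, with differences of 3.76 and 4.24. In the fatty acid elongation list 6 of 21 changes were more positive in CN bolls, against 4.52% of all described probe sets, and none was more negative. The histone, replication and cyclin list, without a call in CN bolls, had 26 of 53 up-regulated in BS bolls, where 13.7% of all described probe sets were so called, and 22 of its changes were more negative in CN bolls. The photosynthesis list had 23 of 29 up-regulated in BS bolls, set against the same 13.7%, and 10 of its changes were more negative in CN bolls. Of all described probe sets 19.6% were more negative in CN bolls.

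**Figure D5:**
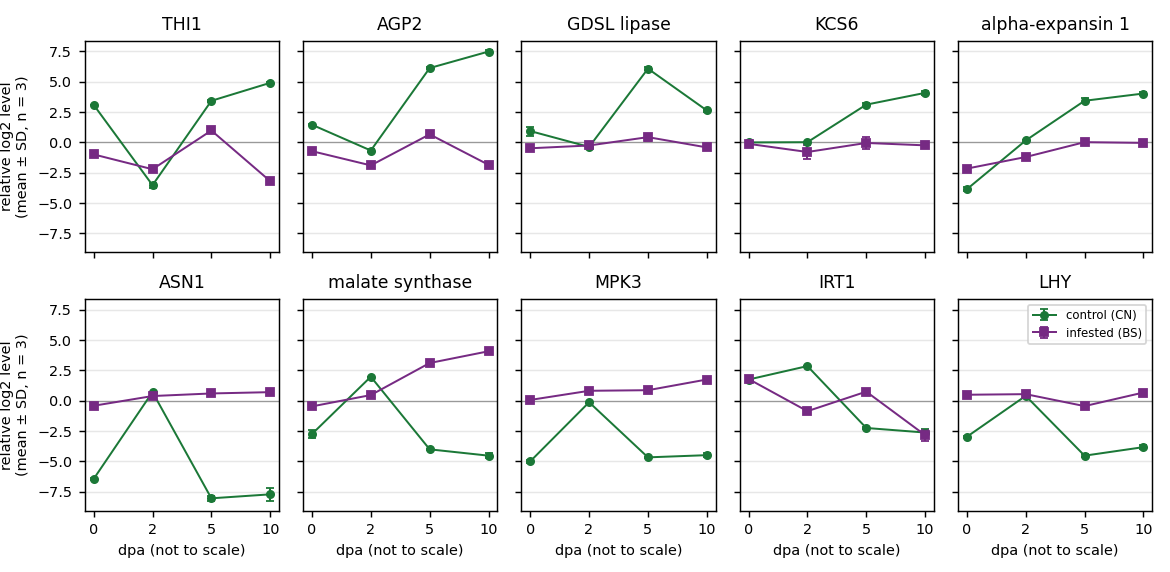
Mean log2 level relative to the 24-array median (± SD, n = 3) of 10 genes at 0, 2, 5 and 10 dpa in CN bolls (green circles) and BS bolls (purple squares). In CN bolls the upper genes are higher at 5 than at 2 dpa (THI1 3.42 against -3.52) and the lower genes fall after 2 dpa (ASN1 -8.03 against 0.72). In BS bolls THI1 and AGP2 also rise from 2 to 5 dpa, by 3.19 and 2.56, and ASN1 changes by 0.21.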

How the data were processed

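The deposited values were log2 values that the authors made from Affymetrix Cotton GeneChip arrays by RMA in GeneSpring GX (background correction, quantile normalization and median polish). Every probe set had its median over the 24 arrays at 0, which was read from the values, so abundance, background and detection were not tested. Control probe sets (103 AFFX and 52 reporter) were left out, and 23977 probe sets were tested. The 8 groups of 3 arrays were fitted together in limma 3.58.1 (R 4.3.3; 16 residual and 3.53 prior degrees of freedom), and contrasts were called at an adjusted p (Benjamini-Hochberg) of at most 0.01 and a fold of at least 3, the thresholds of the study's methods. The script was tested on simulated data. The methods' t-test, other scalings, other folds, a filter on SD, fewer arrays, a replicate block and leaving out each array were alternatives.

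Descriptions came from the study's supplementary tables, which are shortened in part, through Arabidopsis matches, so several cotton genes can carry one name. The members and lists were chosen with earlier results of these data known. The 12 largest changes in each direction, the 2 largest called changes per list and direction, and all cell type markers were named, 119 probe sets in all. A further 9 lists were added after values were seen. A difference was more positive or more negative where the CN change minus the BS change passed the same thresholds. Array number limits the precision.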

Additional observations from a re-analysis of the deposited data

Results flagged for a closer look

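The change from 2 to 5 dpa differed between CN and BS bolls by a direct test of the difference (limma, adjusted p at most 0.01 and a difference of at least 3-fold) for 248 probe sets in the positive and 1010 in the negative direction. The values below are the CN change minus the BS change in log2 units, for named genes that passed this test. Most genes were named for a large CN change, which is part of the difference tested. Their descriptions came from lists of transcripts that changed under infestation on these same arrays. Of 96 named and called probe sets 80 passed, and this count is in part fixed by that choice.

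In genes that fell in CN bolls the difference was -8.96 for ASN1 and -8.37 for its second probe set, -8.76 for the curculin-like lectin, -6.52 for the sugar-binding protein, -8.62 for malate synthase, -8.44 for EXLB1 and -7.64 for its second probe set. It was -6.93 for VEP1, -6.71 for IRT1, -5.49 for the osmotin-like protein, -5.49 for polygalacturonase, -5.40 for SAG21, -4.98 for LTP3 and -4.85 for P5CS2. Among regulators and signalling genes it was -5.15 for NAC047, -4.77 for BLH1, -4.59 for MPK3, -4.39 for WRKY19, -4.34 for MYB108, -4.16 for STZ, -4.07 for RD26, -3.94 for LHY, -3.34 for RAV1 and -2.58 for HB40. Ethylene and trehalose genes had -4.88 for ACS1, -3.10 for ACCS-1, -4.78 for TPS11 and -3.07 for the trehalose-6-phosphate phosphatase. The remaining falls had -4.87 for XTR4, -4.71 for GSTU18, -3.88 for the class I endochitinase, -3.47 for CAB1, -3.44 for PIP2B, -3.36 for chlorophyll a oxygenase, -2.92 for the trypsin inhibitor, -2.78 for STP1, -2.69 for CSLG2, -2.53 for HSP15.7, -1.98 for TCH4 and -1.75 for the late embryogenesis abundant storage protein.

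In genes that rose in CN bolls the difference was 5.76 for the GDSL lipase and 4.87 for the oleosin or glycine-rich protein. It was 4.24 for AGP2 and 3.87 for its second probe set. The difference was 3.76 for THI1, 3.55 for the universal stress protein, 3.21 for CCL and 2.18 for thiC. It was 2.91 and 2.35 for the 2 KCS6 probe sets, 2.79 for beta-tubulin 17, 2.76 for MEE3, 2.33 for the proline-rich wall protein, 2.05 for alpha-expansin 1, 2.03 for the MYB family factor, 1.89 for thaumatin-like protein 1, 1.80 for BNLGHi6313, 1.80 for gamma-TIP, 1.79 for BFRUCT3, 1.65 for ACT11 and 1.63 for the SAUR-like protein. EXGT-A1 rose in both kinds of boll and less in CN bolls, with -1.61. LHCB3 and D-29, a late embryogenesis abundant protein of the seed and embryo list not named above, were not called in CN bolls. LHCB3 had -1.86, and D-29 had 3.60, with a BS change of -3.12 and a CN change of 0.48.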

How the results depend on the processing

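The 258 up-regulated and 510 down-regulated probe sets were 424 and 472 after quantile normalization, which kept 244 and 327 of them, 365 and 400 after centring on the hybridization controls, and 456 and 338 after centring on the poly-A controls, an alternative chosen after seeing the data. Whether poly-A RNA had been added is not stated. Quantile normalization was applied to the centred values, although the authors' RMA had already included this step. It gave arrays of unlike SD the same spread, so its counts do not show how the uncentred values would behave. The methods' t-test with Benjamini-Hochberg adjustment gave 253 and 505. The median change of all probe sets, 0.05 as reported, became 0.27 and 0.44 under these centrings. A fold of at least 2 gave 643 and 1035, and no fold threshold 3923 and 4142. The 248 more positive and 1010 more negative differences became 643 and 1023 after quantile normalization, 847 and 1926 at a fold of at least 2, and 4224 and 4534 with none. The cause of the differences between scalings was not tested. Leaving out 1 array at a time gave 258 to 266, 507 to 517, 242 to 258 and 999 to 1037. The replicate numbers did not pair the samples (correlations of deviations -0.03, -0.00 and 0.10), and with the replicate number as a block the counts were 258, 510, 248 and 1010. No named gene changed sign where it was called with or without the alternative. Of the 96 named probe sets that were called, 12 lost their call after quantile normalization and 8 and 9 after the 2 centrings. Without CN 5 dpa replicate 1 the loss was 1, and without CN 5 dpa replicate 3 it was 2. Named probe sets that gained a call numbered 2 after quantile normalization and 1 after each centring. Values near background could not be told from higher ones.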
